A study of Homo sapiens with 2 samples.

Results

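The genes described here encode collagen chains, and the data are peaks of H4K5ac (histone H4 acetylated at lysine 5) in FaDu, a human cell line established from a head and neck cancer. Members were the RefSeq protein-coding genes of chromosomes 1 to 22 whose symbol reads COL, a number, A and a number, which gave 41 of 19122 genes; 1 further gene with such a symbol was not analysed here. Chromatin immunoprecipitation and sequencing gave 2 libraries, 1 from cells in normoxia and 1 from cells in hypoxia (1% O2 for 18 h), each read as 75 bp single-end reads. Both carry the same cell line label. The culture protocol mentions knockdown of METTL4 by lentivirus, but no label assigns it to either library. The antibody target is H4K5ac in the sample labels, but the design text of the series gives H3K4Ac. With 1 library per condition no test of hypoxia was possible, and every count below describes these 2 libraries. Intervals are 95% exact binomial (Clopper-Pearson) intervals over genes or peaks, which are not replicates, and cover counting error only.

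Collagens are secreted or membrane-bound proteins built from chains that wind into a triple helix. Fibrillar collagens form the rope-like fibrils of connective tissue, and type IV collagen forms the sheet of the basement membrane on which epithelial cells rest. FACIT collagens (fibril-associated collagens with interrupted triple helices) sit on the surface of fibrils, network collagens form open lattices, and transmembrane collagens span the plasma membrane of the cell that makes them. In carcinomas, fibroblasts are the main source of fibrillar collagen, while epithelial cells contribute to the basement membrane. Histone acetylation of this kind is found at active promoters and enhancers, so a peak describes the state of a stretch of chromatin and not the amount of RNA or protein. Of the members, 11 are fibrillar, 6 basement membrane, 3 network, 10 FACIT and 3 transmembrane. The other 8 are the type VI chains of beaded filaments, type VII of anchoring fibrils, and types XXVI and XXVIII.

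Sequences are shown for the stretches just before some of the collagen starts described below, from RefSeq (GRCh38.p14, the assembly hg38 names), 5′ to 3′. Capitals mark the motif GGGCGG, the motif CCAAT, the motif ACGTG or the motif GCGTG on either strand, so that CCGCCC is GGGCGG read on the other strand; the motif TATAAA was searched too. The first pair shows the whole gap between 2 genes that run in opposite directions: 126 bp at chr13:110307158-110307283 between COL4A1 and COL4A2, and 135 bp at chr2:227164489-227164623 between COL4A4 and COL4A3, both on the forward strand. Each gap lay under 1 peak in each library.
COL4A1-COL4A2: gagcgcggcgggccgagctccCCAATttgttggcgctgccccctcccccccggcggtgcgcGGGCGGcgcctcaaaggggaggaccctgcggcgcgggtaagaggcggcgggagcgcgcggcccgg
COL4A4-COL4A3: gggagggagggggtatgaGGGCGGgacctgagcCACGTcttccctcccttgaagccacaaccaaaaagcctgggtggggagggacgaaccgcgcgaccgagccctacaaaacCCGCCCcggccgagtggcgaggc
The next 3 are the 250 bases before starts marked in both libraries. COL18A1 (chr21:45404915-45405164, forward strand) had the most CpG dinucleotides, COL12A1 (chr6:75206054-75206303, reverse strand) the highest normoxia pileup at a start, and COL19A1 (chr6:69866306-69866555, forward strand) the highest folds of the FACIT class at a start.
COL18A1: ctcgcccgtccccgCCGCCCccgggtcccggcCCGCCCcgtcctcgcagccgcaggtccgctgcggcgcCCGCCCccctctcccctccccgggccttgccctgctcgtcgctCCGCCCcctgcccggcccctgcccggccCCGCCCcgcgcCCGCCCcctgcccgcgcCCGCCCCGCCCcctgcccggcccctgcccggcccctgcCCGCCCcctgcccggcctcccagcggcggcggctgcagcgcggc
COL12A1: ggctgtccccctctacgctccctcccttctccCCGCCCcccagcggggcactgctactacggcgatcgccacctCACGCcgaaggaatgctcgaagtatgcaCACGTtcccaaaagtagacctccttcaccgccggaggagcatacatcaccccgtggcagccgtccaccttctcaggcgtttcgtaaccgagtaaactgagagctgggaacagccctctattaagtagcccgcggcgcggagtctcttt
COL19A1: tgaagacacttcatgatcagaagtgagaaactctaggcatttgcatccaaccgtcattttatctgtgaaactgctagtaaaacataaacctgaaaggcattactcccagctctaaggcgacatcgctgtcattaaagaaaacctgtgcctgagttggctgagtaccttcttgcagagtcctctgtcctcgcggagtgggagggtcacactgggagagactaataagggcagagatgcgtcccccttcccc
The last 2 are the same stretch of COL6A3, marked in hypoxia only (chr2:237414165-237414414, reverse strand), and COL10A1, marked in neither library (chr6:116217145-116217394, reverse strand).
COL6A3: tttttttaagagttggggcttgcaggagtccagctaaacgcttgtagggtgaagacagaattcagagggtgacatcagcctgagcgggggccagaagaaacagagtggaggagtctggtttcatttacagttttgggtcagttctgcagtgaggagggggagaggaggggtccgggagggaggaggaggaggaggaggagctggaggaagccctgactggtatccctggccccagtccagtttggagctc
COL10A1: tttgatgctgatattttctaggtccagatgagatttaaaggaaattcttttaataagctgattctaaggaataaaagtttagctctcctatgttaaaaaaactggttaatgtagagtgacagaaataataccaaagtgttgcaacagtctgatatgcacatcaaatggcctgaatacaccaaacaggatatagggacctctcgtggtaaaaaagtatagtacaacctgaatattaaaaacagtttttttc
The 2 type IV gaps were rich in G and C (80.2% and 68.1%) and held 20 and 11 CpG. The COL10A1 stretch was 32.4% G and C with 1 CpG, and neither it nor those of COL6A3 and COL19A1 held any of the 5 motifs. It belongs to 1 of 3 annotated COL10A1 starts, and the 300 bp promoter windows of the others each held CCAAT and TATAAA. A start counted as marked if a peak reached within 1000 bp of it. The stretch shown therefore need not lie under a peak. No peak of either library reached the COL19A1 or COL6A3 stretch. Peaks covered the COL12A1 stretch in part in both libraries, and the COL18A1 stretch in part in hypoxia alone.

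The 2 peak lists differed in length, which touches every count below. Normoxia had 120033 peaks covering 59.2 Mb and hypoxia 258195 peaks covering 99.9 Mb, 2.15 times as many. Counts were therefore repeated with strong peaks (−log10 q of at least 10, 29967 and 48782 peaks) and after trimming the hypoxia list to the 120033 peaks of highest −log10 p, called equal lists below. The sources used here give no read totals. The lowest background of any peak, in reads, was 3.13 in normoxia and 3.24 in hypoxia. Of all genes, 70.2% were marked at a gene end in both libraries, 11.7% in hypoxia only and 17% in neither. Among lineage markers, 9 of 10 squamous epithelial genes were marked at a gene end in both libraries and TP63 in hypoxia only. Of 10 fibroblast genes, S100A4 and ACTA2 were marked in both, DPT and PDGFRB in hypoxia only, and the other 6 (FAP, PDGFRA, THY1, LUM, DCN and POSTN) had no gene-end peak, although the annotated start of PDGFRA, inside its span, was marked in both. The annotated starts of TP63 and PDGFRB were marked in neither library. Inside its span, however, TP63 held 22 normoxia and 34 hypoxia peaks, and PDGFRB held 4 and 6. At gene ends, the 5 endothelial and the 5 chondrocyte genes divided in the same way. Of each 5, 2 were marked in both libraries (KDR and VWF, MATN3 and SOX9). Another 2 were marked in hypoxia only (CDH5 and PECAM1, HAPLN1 and ACAN) and 1 in neither (TEK, CHAD). Inside their spans, CDH5, PECAM1, HAPLN1 and ACAN held 3, 6, 1 and 1 normoxia peaks. TEK held 1 normoxia and 2 hypoxia peaks, and CHAD 1 hypoxia peak.

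Most collagen genes carried H4K5ac at an end of the gene in both libraries, and none did so in normoxia alone. An end counted as marked if any peak reached within 1000 bp of it. Of 41 collagen genes, 29 were marked in both libraries (70.7%, interval 54.5 to 83.9%), against 70.2% of all genes. A further 7 were marked in hypoxia only (17.1%, 7.15 to 32.1%), against 11.7% of all genes: COL27A1, COL9A3, COL20A1, COL22A1, COL6A3, COL6A5 and COL6A6. None was marked in normoxia only (1.09% of all genes), and 5 were marked in neither (17% of all genes): COL2A1, COL3A1, COL10A1, COL9A1 and COL28A1. For peaks as deposited, the interval of the collagen share held the share of all genes in each of these 4 states. Equal lists left 28 genes with a mark in both (68.9% of all genes), 3 with a hypoxia mark alone (5.72%), 1 with a normoxia mark alone (2.43%) and 9 without (23%). The 3 hypoxia-only genes that remained were COL22A1, COL6A5 and COL6A6, and COL5A3, a minor fibrillar chain, was the normoxia-only gene. With strong peaks in both lists, 20 genes had a mark in both (48.8%, 32.9 to 64.9%, against 60.5% of all genes) and 7 a hypoxia mark alone (17.1%, 7.15 to 32.1%, against 6.82%). None had a normoxia mark alone (0.591% of all genes) and 14 had no mark (32.1%). Here the hypoxia-only share of all genes lay just below the collagen interval.

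A gene end is not always the start of transcription. RefSeq promoters gave annotated starts for 29 of the members, and for the other 12 (COL1A1, COL1A2, COL2A1, COL3A1, COL5A2, COL8A1, COL9A3, COL20A1, COL14A1, COL22A1, COL6A1 and COL6A5) either gene end was used. At annotated starts, 23 of 29 genes were marked in both libraries (79.3%, 60.3 to 92.0%), against 72.6% of 15100 genes. Another 4 were marked in hypoxia only (9.58% of all): COL11A2, COL9A1, COL6A3 and COL6A6. None was marked in normoxia only (0.768% of all), and COL10A1 and COL28A1 were marked in neither (17.1% of all). The start changed the reading of 3 genes. COL27A1 moved to both libraries, because its annotated start lies inside the span. COL9A1 moved from neither to hypoxia only, and COL11A2 from both to hypoxia only, its shared peak being at the far end. Equal lists left 22 starts with a mark in both (71.6% of all), COL6A6 with a hypoxia mark alone (4.77%), COL5A3 with a normoxia mark alone (1.72%) and 5 without (21.9%). With strong peaks 16 had a mark in both (55.2%, 35.7 to 73.6%, against 64.3% of all) and 7 a hypoxia mark alone (24.1%, 10.3 to 43.5%, against 6%). The 7 were COL11A1, COL15A1, COL8A2, COL16A1, COL9A2, COL21A1 and COL6A6, and all but COL6A6 had a weaker normoxia peak at a start. None had a normoxia mark alone (0.47% of all) and 6 had no mark (29.3%).

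The plot of peak fold by gene combines annotated starts with gene ends where no start was given, and on that basis 29 genes had a peak in both libraries, 8 had one in hypoxia alone and 4 had none. No share of all genes was computed on this mixed basis, for these counts or for the class counts below. At gene ends the shares of all genes were 70.2% both, 11.7% hypoxia only and 17% neither. At annotated starts they were 72.6%, 9.58% and 17.1%. All 6 basement membrane genes and all 3 transmembrane genes were marked in both. The 8 hypoxia-only genes were 4 FACIT genes, 3 type VI chains and COL11A2. Fold is the authors' enrichment of the summit over the local background of its own library, and is used here only to describe a peak. Pileup, the number of reads over the summit, was derived from the deposited fold and p-value and is not scaled between libraries.

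**Figure D1:**
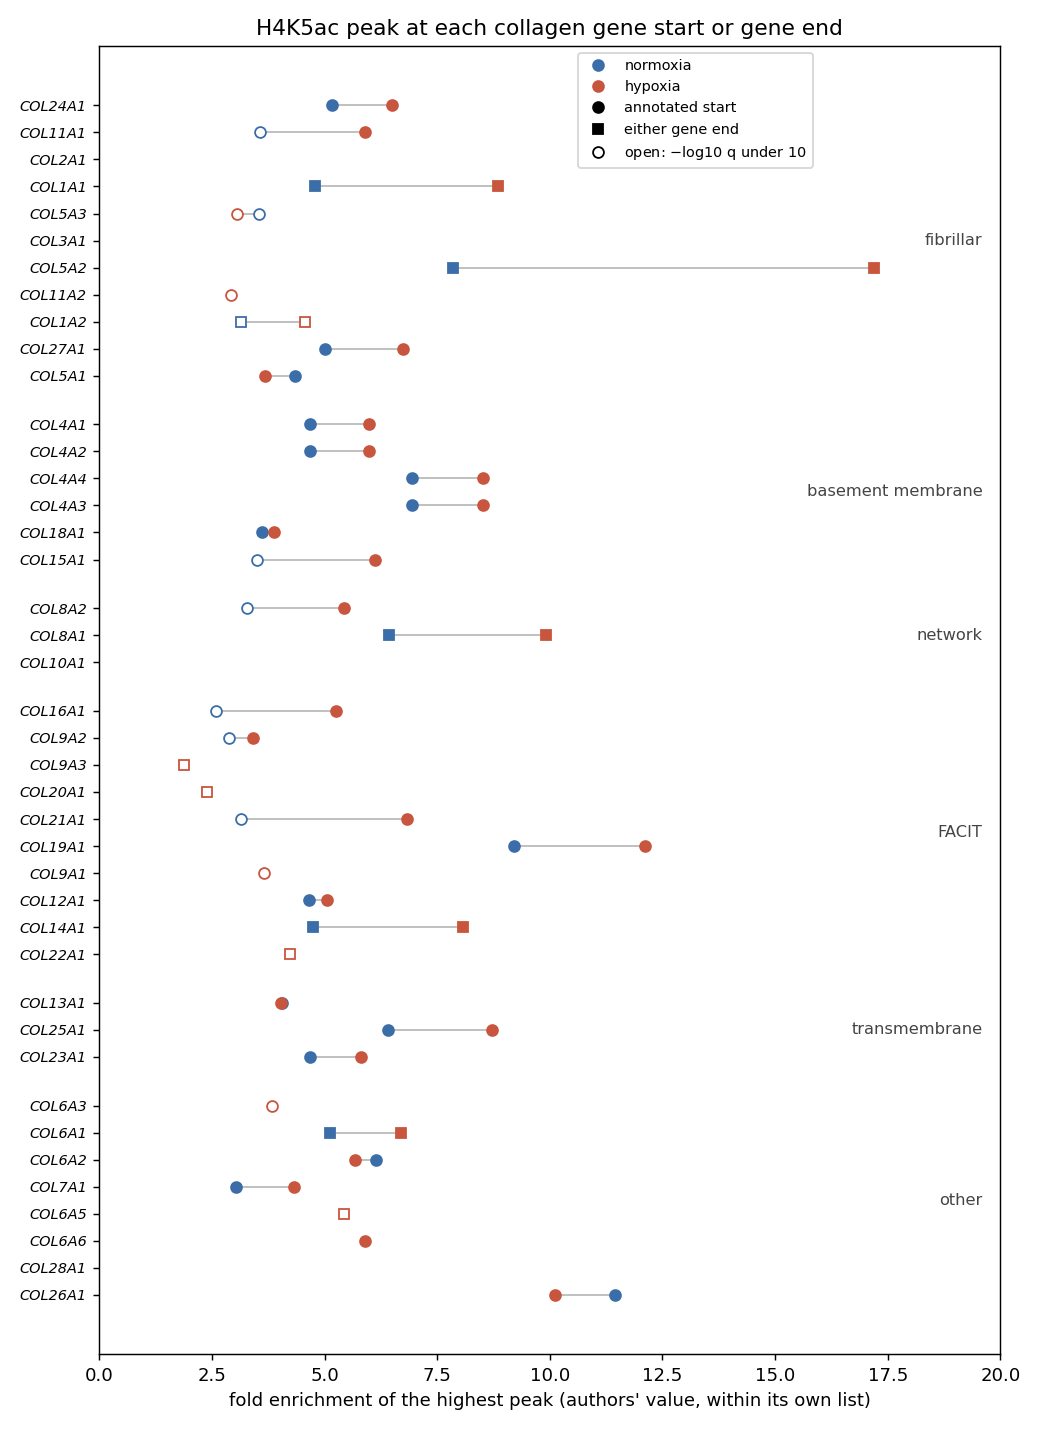
Authors' fold enrichment (horizontal axis) of the highest peak at the annotated start (circles) or, where none was given, at either gene end (squares) of each collagen gene, in normoxia (blue) and hypoxia (red), grouped by class; open symbols have a −log10 q under 10. Rows with a red symbol alone are the 8 hypoxia-only genes, rows with none are COL2A1, COL3A1, COL10A1 and COL28A1, and no row has a blue symbol alone.

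Among the fibrillar genes, 8 of 11 were marked in both libraries. COL1A1, which encodes the more abundant chain of type I collagen of bone, skin and tendon, had a peak at its higher-coordinate end of 390 bp in normoxia (chr17:50200584-50200973, fold 4.79, pileup 48 reads) and 875 bp in hypoxia (fold 8.86, pileup 149 reads). Its partner COL1A2 was weaker, with a fold of 3.15 and 12 reads in normoxia and of 4.57 and 23 reads in hypoxia. The 2 chains of type I collagen therefore both carried the mark, with the hypoxia −log10 q at 85.8 for COL1A1 and 8.26 for COL1A2. COL5A2, a chain of the type V collagen that nucleates fibrils, had the highest folds of its class at a gene end (7.86 in normoxia, 17.2 in hypoxia), but the same peaks also lay at an end of WDR75. COL5A1, the other main type V chain, had 61 reads in normoxia and 103 in hypoxia, while its local background was 13.3 and 27.3 reads, so that its fold was 4.34 and then 3.68. COL5A3 had weak peaks in both, with 14 and 19 reads and folds of 3.54 and 3.04. COL24A1, a minor fibrillar chain, had 36 and 67 reads (folds 5.16 and 6.49), and COL27A1 had 65 and 104 reads at its annotated start (folds 5.02 and 6.75). COL11A1, a chain of cartilage fibrils, had 14 reads in normoxia and 24 in hypoxia (folds 3.56 and 5.90). At the start of COL11A2 hypoxia alone had a peak, of 22 reads and fold 2.93, that also lay at an end of RXRB. Its far end had 74 and 168 reads (folds 7.42 and 10.8). COL2A1, the main collagen of cartilage, and COL3A1, the collagen of reticular fibres, had no peak at either end in either library.

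All 6 basement membrane genes were marked in both libraries, and 4 of them share 2 peaks. COL4A1 and COL4A2 encode the chains found in nearly all basement membranes. The peak over the gap between them, whose sequence is shown above, was 1818 bp wide in normoxia (chr13:110306490-110308307) with 86 reads and a fold of 4.68, and 1893 bp wide in hypoxia with 133 reads and a fold of 6.0. COL4A4 and COL4A3, whose chains serve the kidney glomerulus and other specialised membranes, shared a peak of 46 reads in normoxia (1562 bp, chr2:227163683-227165244, fold 6.93) and 66 reads in hypoxia (1555 bp, fold 8.53). Both gaps were thus covered at almost the same width in the 2 libraries. COL18A1, whose product releases endostatin, had 86 and 127 reads over backgrounds of 23.2 and 32.1, with folds of 3.60 and 3.87; the peak also lay at an end of the non-coding gene BNAT1. A second annotated start of COL18A1, inside the gene, had a peak in hypoxia alone with 69 reads and a fold of 2.78. COL15A1, a relative of COL18A1, had 3 narrow normoxia peaks at its start, the highest with 16 reads (fold 3.51), and 1 hypoxia peak of 1232 bp with 39 reads (fold 6.11). That stretch is shared with an end of COL15A1-AS1, and the peaks carry no strand.

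In the network class, COL8A1 and COL8A2, the chains of type VIII collagen of the corneal Descemet membrane, were marked in both libraries. COL8A1 had 51 reads in normoxia and 63 in hypoxia at a gene end (folds 6.44 and 9.91). COL8A2 had 22 and 57 reads at its start (folds 3.27 and 5.42). COL10A1, made by hypertrophic chondrocytes, had no peak in either library at any of its 3 annotated starts. Those starts held between 1 and 3 CpG in the 300 bp promoter window.

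Of the 10 FACIT genes, 6 were marked in both libraries and 4 in hypoxia only. COL12A1, which decorates type I fibrils, had 111 reads in normoxia and 127 in hypoxia (folds 4.66 and 5.06), the smallest pileup ratio of any collagen start, 1.14. COL14A1, a close relative, had 45 reads in normoxia and 100 in hypoxia at a gene end (folds 4.74 and 8.06). COL19A1 had 49 and 84 reads with folds of 9.20 and 12.1. COL16A1 had the largest pileup ratio of the class, with 31 and 85 reads (folds 2.58 and 5.25), a ratio of 2.74. COL9A2 was marked in both (33 and 63 reads), while the other type IX chains of cartilage were marked in hypoxia only. COL9A1 had 16 hypoxia reads at an internal start (fold 3.65). COL9A3 had 39 hypoxia reads over a background of 20.3 (fold 1.88). COL20A1 had 26 (fold 2.39) and COL22A1, known from tissue junctions, 24 (fold 4.22). COL21A1 had 2 marked starts: the outer one had 12 and 19 reads, and the inner one had no normoxia peak and 28 hypoxia reads (fold 6.84).

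The transmembrane genes were alike in carrying a start peak in each library. COL13A1 had 41 and 51 reads with nearly equal folds of 4.06 and 4.04. COL23A1 had 35 and 56 reads (folds 4.67 and 5.81). COL25A1, whose product binds amyloid fibrils, had 30 and 48 reads (folds 6.40 and 8.71). Non-coding genes also had an end at some of these peaks, as COL25A1-DT did here and COL6A2-DT did at COL6A2.

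Type VI collagen divided by chain. COL6A1 had its highest peak at a gene end with 44 reads in normoxia (fold 5.12) and 123 in hypoxia (fold 6.69), which are 2 neighbouring peaks rather than 1. COL6A2 had 52 and 105 reads over backgrounds of 7.64 and 17.7, with folds of 6.13 and 5.68. COL6A3, COL6A5 and COL6A6, the longer type VI chains, were marked in hypoxia only. COL6A3 had 16 hypoxia reads (fold 3.83), COL6A5 had 22 (fold 5.42) and COL6A6 had 24 (fold 5.90). For comparison, the lowest normoxia pileups listed at a collagen start or gene end were 12 reads, at COL1A2 and COL21A1. COL7A1, which anchors the epidermis to the dermis, had 56 reads in normoxia and 130 in hypoxia (folds 3.04 and 4.31). COL26A1 had the highest normoxia fold of any collagen start, 11.4 with 85 reads, and 10.1 with 110 reads in hypoxia. COL28A1 had no peak at its start in either library.

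Across the 23 starts marked in both libraries, the highest hypoxia pileup exceeded the normoxia one in all 23 genes, against 92.6% of all genes with such a start. The ratio ran from 1.14 to 2.74 with a median of 1.60, beside a median of 1.43 over the 10961 genes. The local background under these collagen peaks was also higher in hypoxia, by a median ratio of 1.35 (1.01 to 2.31), beside 1.08 for all genes. Fold, which divides by that background, was higher in hypoxia for 18 of the 23 collagen genes, against 90.1% of all genes. The 5 exceptions were COL5A1, COL5A3, COL13A1, COL6A2 and COL26A1. For COL21A1 the 2 highest peaks lie at different starts, and for COL5A3 they are 2 separate peaks near 1 start. COL4A1 and COL4A2 share their start peak, as do COL4A4 and COL4A3, so each shared peak counts for 2 of the 23 genes. Whether background, read depth and pileup are linked was not tested.

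Over their whole length, ends included, collagen spans held 258 normoxia and 667 hypoxia peaks, a ratio of 2.59 (2.24 to 3.0). In the gene bodies, without the 1000 bp at each end, they held 241 and 638, a ratio of 2.65. The spans of all genes held 66850 and 138371, a ratio of 2.07. Collagen genes are long, with a median span of 139 kb against 24.5 kb for all genes, and 19 of them fall in the top length decile (over 152 kb). In that decile the collagen ratio was 2.83 (2.39 to 3.37, from 184 and 521 peaks) and that of all genes 2.23. In the next decile (8 collagen genes) the ratios were 1.93 and 2.10, and among the 14 shorter collagen genes 2.00 against 1.90. The 200 kb either side of each span had a ratio of 1.98 (1.83 to 2.15), below that of the spans. On equal lists the collagen ratio was 1.11 (0.937 to 1.32) and that of all genes 0.994, and for strong peaks 2.06 (1.47 to 2.91) against 1.49. Within the top length decile the ratios on equal lists were 1.19 (0.974 to 1.46) for collagen and 0.970 for all genes. For strong peaks they were 2.31 (1.51 to 3.62) and 1.81. Per 100 kb, the 19 collagen genes of the top length decile held 3.70 normoxia and 10.5 hypoxia peaks, and all genes of that decile held 3.98 and 8.87. The pooled collagen density was thus lower in normoxia and higher in hypoxia, with no interval given. Median densities per gene were 3.74 and 9.21 for collagen, beside 3.93 and 8.60. Median peak numbers per gene were lower for collagen in both libraries (8 and 23, beside 11 and 24).

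**Figure D2:**
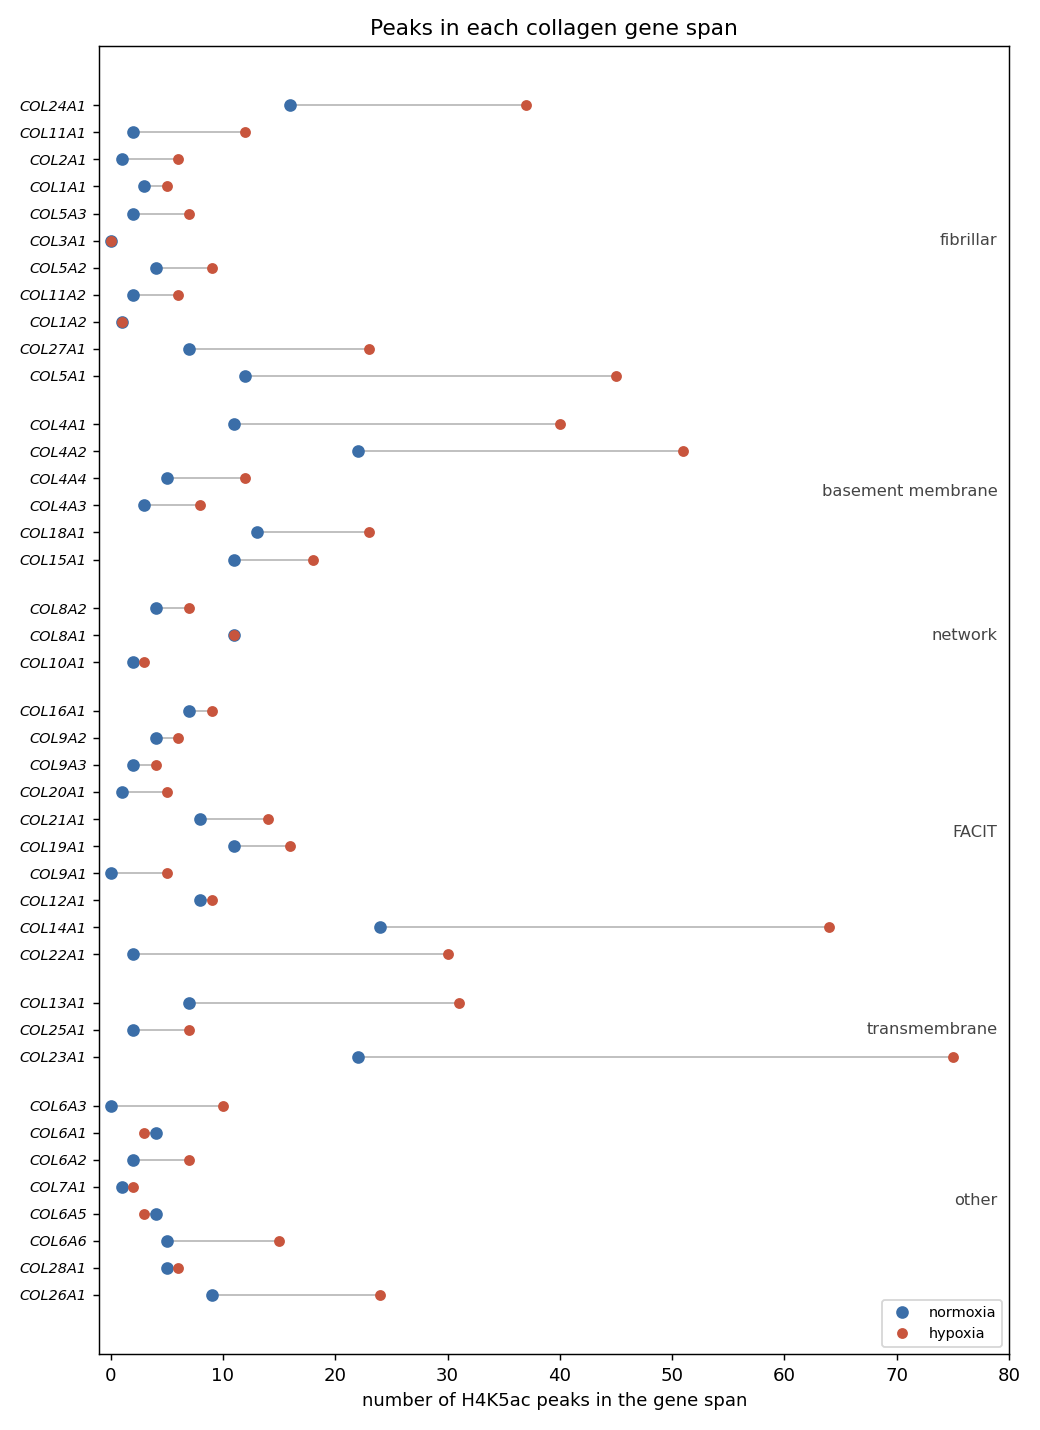
Number of H4K5ac peaks overlapping the span of each collagen gene (horizontal axis) in normoxia (blue) and hypoxia (red), grouped by class, with a line joining the 2 libraries. The widest gaps belong to COL23A1 (22 and 75 peaks) and COL14A1 (24 and 64), and COL3A1 sits at 0 in both.

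By class, the ratio of hypoxia to normoxia span peaks was 3.65 (2.43 to 5.61) in transmembrane, 3.02 (2.18 to 4.25) in fibrillar, 2.42 (1.81 to 3.26) in FACIT and 2.38 (1.76 to 3.25) in basement membrane genes. It was 2.33 (1.5 to 3.71) in the remaining genes and 1.24 (0.621 to 2.49) in the network genes, which held only 17 and 21 peaks. The intervals of the classes overlap, and their order turned with the peaks used. With strong peaks the network ratio was 3.5, from 2 and 7 peaks, the highest of the classes. On equal lists the network ratio was 0.824, the FACIT ratio 0.910 and that of the remaining genes 0.967, all below 1, while the transmembrane ratio was 1.55 and the fibrillar ratio 1.3. Single genes weigh heavily: summed per gene, 8 genes with at least 30 hypoxia peaks held 373 hypoxia and 116 normoxia peaks, beside totals of 667 and 258. Those sums count the peak over the gap between COL4A1 and COL4A2 for both genes, while the totals count it once. COL23A1 had 22 normoxia and 75 hypoxia peaks, COL5A1 had 12 and 45, COL4A2 had 22 and 51, and COL4A1 had 11 and 40. COL22A1 had 2 and 30, beside 1 and 12 in its flanks, and COL13A1 had 7 and 31. COL14A1 had 24 and 64, and COL24A1 had 16 and 37.

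More hypoxia than normoxia peaks were found in 36 of 41 collagen spans, against 64.6% of all genes, whose median span is shorter. COL6A1 and COL6A5, each with 4 and 3 peaks, had more in normoxia (5.95% of all genes). COL8A1 (11 in each) and COL1A2 (1 in each) had equal numbers. COL3A1 had no peak in its span in either library (9.95% of all genes). On equal lists 16 collagen spans had more hypoxia peaks (27.1% of all genes) and 14 more normoxia peaks (27.2%). The plot of peak number against length shows collagen genes on both sides of the median of their length group.

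**Figure D3:**
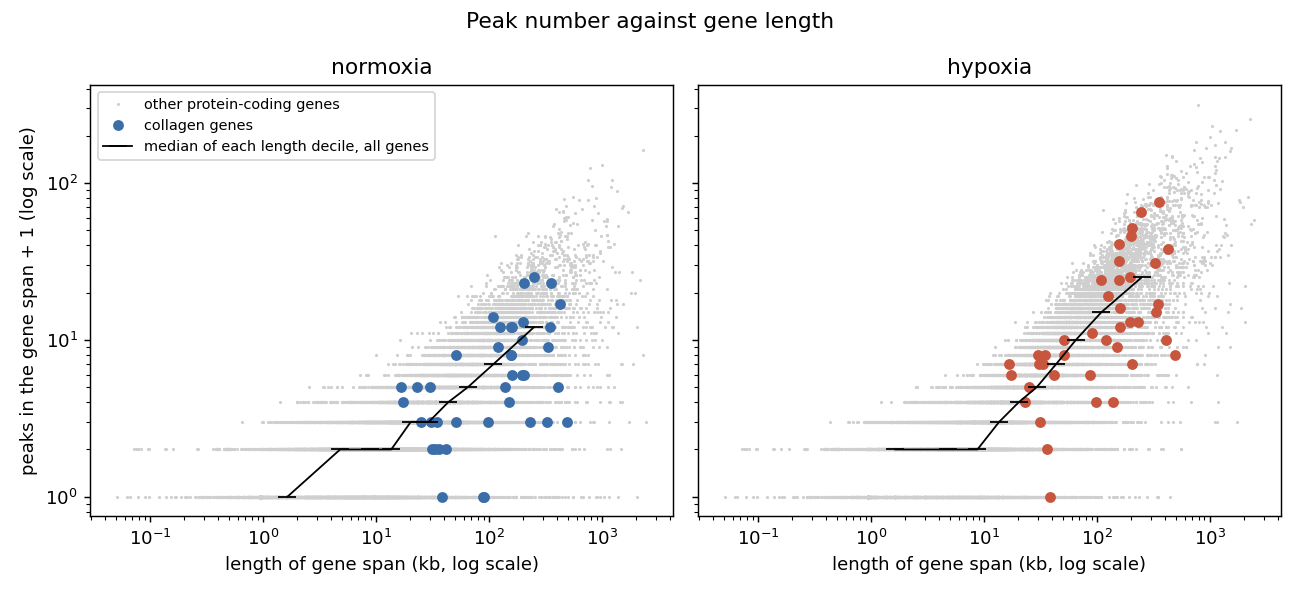
Peaks in the gene span plus 1 (vertical axis, log scale) against span length in kb (horizontal axis, log scale) for collagen genes (coloured) and other protein-coding genes (grey), in normoxia (left) and hypoxia (right); the black line joins the medians of the length deciles of all genes. In the top decile the median is 11 normoxia and 24 hypoxia peaks for all genes, and 8 and 23 for the collagen genes.

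Several collagen genes had tall peaks inside the gene, away from the start. COL5A2 had a peak at chr2:189203810-189204393 with a fold of 12.6 and 60 reads in normoxia, and in hypoxia a fold of 21.0 and 89 reads. Its gene-end peak had lower folds but more reads, 75 and 133. COL14A1 had 185 and 262 reads at an internal peak (folds 13.5 and 17.9). COL11A1 had an internal peak, 175 kb from its start, with folds of 8.39 and 14.6 (38 and 66 reads). COL24A1 had one 229 kb from its start with folds of 8.0 and 13.9 and 32 and 58 reads, again above the start peak by fold and below it by reads (36 and 67). COL28A1, unmarked at its start, had an internal peak 70.4 kb away with folds of 6.73 and 13.4 (28 and 56 reads). COL2A1, unmarked at its ends, had one of nearly equal height in both libraries, with 63 and 64 reads (folds 5.25 and 5.26). COL9A3 had 116 and 196 reads at an internal peak (folds 6.80 and 7.27), well above its hypoxia-only gene-end peak. Span peaks can belong to other genes where spans overlap, as with COL9A3 and TCFL5, COL18A1 and SLC19A1, COL4A4 and RHBDD1, and COL10A1 and NT5DC1.

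Within the type IV pairs, the 2 genes of COL4A1 and COL4A2 together held 32 normoxia and 90 hypoxia peaks, of which 22 and 24 overlapped a peak of the other list. COL4A4 and COL4A3 held 7 and 19, of which 5 and 5 overlapped. In the first pair 2 internal peaks had higher folds than the one over the gap in both libraries. COL4A2 had a peak 12.9 kb inside the gene with 116 and 171 reads (folds 8.14 and 12.3). COL4A1 had one 85.0 kb inside with 45 and 102 reads (folds 5.82 and 12.4). In normoxia alone, further internal peaks with folds of 5.06 and 4.87 were also above the gap peak (4.68). By reads, the COL4A2 peak exceeded the gap peak (86 and 133) in both libraries and the COL4A1 peak was below it. In the second pair the gap peak had the highest fold in both libraries, as the map of both pairs shows.

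**Figure D4:**
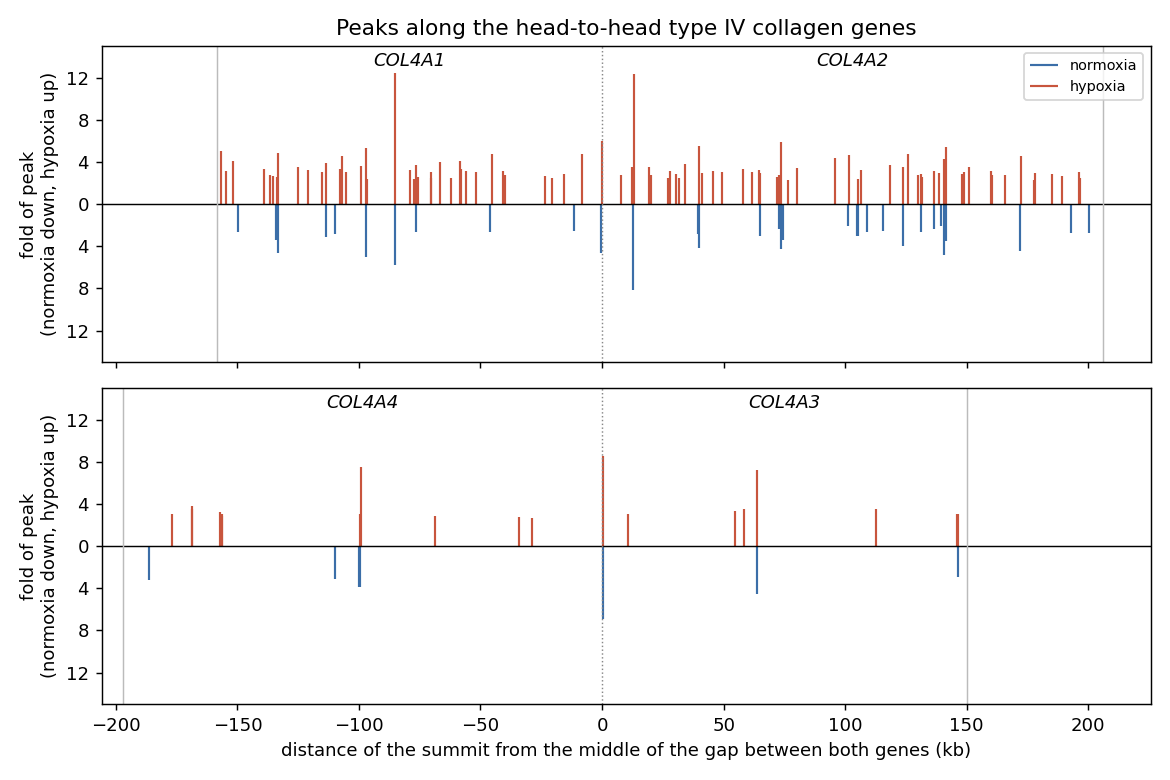
Authors' fold (vertical axis, hypoxia up in red, normoxia down in blue) of each peak in COL4A1 and COL4A2 (top) and in COL4A4 and COL4A3 (bottom), against the distance of its summit from the middle of the gap between the genes in kb; grey lines mark the outer gene ends. The top pair holds 32 normoxia and 90 hypoxia peaks and the bottom pair 7 and 19, and a peak stands over the gap (dotted line) in both libraries of each pair.

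Most normoxia peaks in collagen spans overlapped a hypoxia peak, 184 of 258 (71.3%, 65.4 to 76.8%), beside 70.2% in the spans of all genes. Of the 667 hypoxia peaks, 187 overlapped a normoxia peak (28.0%, 24.7 to 31.6%), beside 34.8% for all genes. Within the top length decile, the shared part of hypoxia peaks was 24.4% (20.7 to 28.3%) for collagen and 28.9% for all genes. For normoxia peaks of that decile it was 69.6% (62.4 to 76.1%) and 63.1%. Hypoxia peaks without a normoxia partner were weaker and narrower, with a median −log10 q of 3.86, 19 reads and a width of 258.5 bp, against 9.61, 36 reads and 439 bp for shared ones. The same held in the spans of all genes (3.86, 17 reads and 261 bp against 11.2, 38 reads and 469 bp). Only 19 of the 480 unpartnered hypoxia peaks were strong (3.96%, beside 3.48% for all genes), in 12 genes. The highest was in COL6A6, 30006 bp inside the gene, with a fold of 7.31 and 30 reads, and COL6A6 held 3 of the 19. COL14A1 held 4, COL4A1 and COL5A1 2 each, and COL18A1, COL21A1, COL22A1, COL23A1, COL24A1, COL27A1, COL4A2 and COL9A3 1 each. Of 74 unpartnered normoxia peaks, 1 was strong (1.35%, beside 1.43% for all genes), in COL4A2 (fold 3.44).

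Normoxia peaks were densest near the start. In the 20 long collagen genes (top 2 length deciles) whose annotated start lies at an end of the span, the segment next to the start, when the gene is cut into 5 equal segments, held 31.5% of normoxia and 22.6% of hypoxia peaks. In 2693 genes of that length the shares were 27.4% and 23.4%. Strong peaks lay there more often, with 50% and 41.0% in collagen genes and 47.2% and 39.3% in genes of that length. Unpartnered hypoxia peaks were spread more evenly, with 19.0% in that segment of collagen genes and 20.3% in the others. The 49 unpartnered normoxia peaks of these collagen genes had 18.4% in that segment and 32.7% in the segment farthest from the start. In the others the shares were 21.4% and 18.1%. At the far end of the gene, 4 of 29 collagen genes were marked in normoxia (12.9% of all genes) and 8 in hypoxia (24.3%).

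Starts marked in both libraries had the highest median CpG number, in collagen genes as in all genes. In the 300 bp window (250 before and 50 after the start), the 25 collagen starts marked in both libraries held a median of 29 CpG, the 8 marked in hypoxia only 15 and the 7 marked in neither 2. For all coding starts the medians were 27, 9 and 4. The G and C content followed the same order, with collagen medians of 68.3%, 61.7% and 40.3%. COL6A3, marked in hypoxia only, held 4 CpG, and COL18A1 held 46. Of all 40 collagen starts, 23 held GGGCGG (57.5%, beside 56.6% of 21155 coding starts), 16 GCGTG (40%, 42.8%), 11 CCAAT (27.5%, 34.4%), 7 ACGTG (17.5%, 22.9%) and 7 TATAAA (17.5%, 9.51%). Both strands were searched, GCGTG and ACGTG can be part of a hypoxia response element, and a match is a string of letters and not a bound site.

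**Figure D5:**
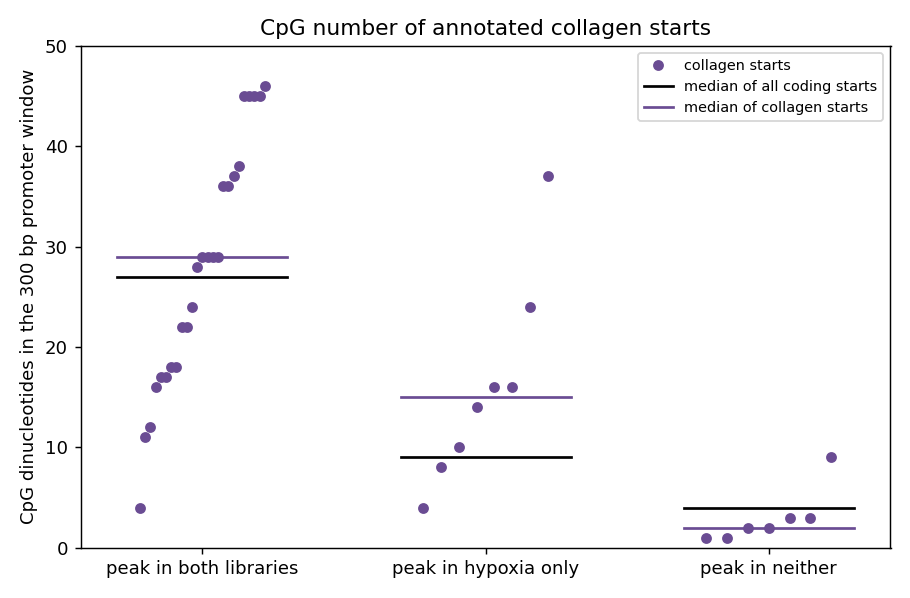
Number of CpG dinucleotides in the 300 bp window (vertical axis) for each of the 40 annotated collagen starts, grouped by whether H4K5ac was listed in both libraries, hypoxia only or neither (points spread sideways for legibility); lines give medians of collagen (purple) and all coding starts (black). Starts marked in both reach 46 CpG, and those marked in neither stay at 9 or below.

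Genes that process collagen were almost all marked in both libraries. Of 30 enzymes, chaperones and proteases, 28 were marked at a gene end in both, P3H3, a prolyl hydroxylase, in hypoxia only (fold 3.99), and PCOLCE, an enhancer of procollagen cleavage, in neither. Examples with the highest hypoxia fold were MIA3, which helps procollagen leave the endoplasmic reticulum (9.89 in normoxia, 13.2 in hypoxia), P4HA3 (4.85 and 11.6) and P4HA1 (7.22 and 10.4), prolyl hydroxylase subunits, and PCOLCE2 (7.27 and 11.05). Among 7 collagen receptors, 5 were marked in both, among them the integrins ITGA2 (5.93 and 14.8) and ITGB1 (6.47 and 9.64). DDR2 and DDR1 were marked at neither gene end, although the annotated start of DDR1 was marked in both. ITGA10, marked at a gene end in both, was marked in hypoxia only at its annotated start. Of 27 other structural matrix genes, 23 were marked in both, for example the laminin chains LAMC1 (7.06 and 11.8) and LAMA4 (7.70 and 11.8). VCAN (fold 2.44), LAMA2 (5.19), THBS2 (3.44) and NID2 (5.30) were marked in hypoxia only. These counts stand beside the 70.2% of all genes marked in both and the 11.7% marked in hypoxia only. The span ratio of hypoxia to normoxia peaks was 1.86 for processing genes, 1.60 for receptors and 1.99 for other matrix genes, beside 2.59 for collagens, whose spans are longer.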

How the data were processed

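H4K5ac ChIP-seq peaks from 2 FaDu libraries (normoxia and hypoxia) were used as deposited, 1 list per library. Per the submitters' processing notes, the authors used build hg38 with MACS2 and SICER. Their versions and settings, and whether a control library was used, are not stated in those notes. The deposited columns are a score (10 times the −log10 p-value, rounded down), the fold enrichment ratio at the summit, the p-value and the q-value as −log10, and the summit position. The fold and p-value were solved for pileup and local background, with fold as (pileup + 1) / (background + 1) and p as a Poisson tail. The pileup was whole, within 0.02, for 100% of normoxia and 99.9992% of hypoxia peaks. The scripts were tested on simulated data.

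Peaks were counted by an overlap of at least 1 bp with gene spans and with the 1000 bp either side of gene ends or annotated starts (RefSeq, GRCh38.p14), with Python 3.11.15, pandas 2.3.3 and scipy 1.17.1. Processing by the authors can shape these counts: each list was called separately, so a gene lacking a peak in 1 list may have fallen below its threshold. Members, lists and the naming rule were chosen with earlier results of these data known. Every member could be named. Pathway genes were named if marked in 1 library or neither, or among up to 4 with the highest hypoxia fold. The alternatives were other windows, strong peaks, equal lists, summits, gene bodies, a 50% overlap, another class assignment, flanks and leaving out the richest member.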

Additional observations from a re-analysis of the deposited data

How the results depend on the processing

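Of 96 recomputed values, 60 stayed within the range set for a like result and 36 moved; with no replicates, none has a test. No paired analysis was possible because each condition had 1 library. Flanks and leaving out the member with the most peaks were chosen after seeing the data. Collagen genes marked at a gene end in normoxia only were 1, in place of 0, with a 500 bp window, with summits and on equal lists. Those marked in neither were 2 with a 2000 bp window, 14 with strong peaks, 9 on equal lists and 2 of 29 at starts, in place of 5. Those marked in hypoxia only were 3 on equal lists and 4 at starts, in place of 7. With strong peaks, spans held 53 normoxia and 109 hypoxia peaks (ratio 2.06). Equal lists left 287 hypoxia peaks (ratio 1.11), and flanks held 883 and 1752 (1.98). The shared shares of normoxia and hypoxia peaks were 90.6% and 48.6% with strong peaks, and 55.0% and 49.8% on equal lists. By class, the ratio with strong peaks was 2.0 for fibrillar, 1.67 for basement membrane, 3.5 for network and 2.4 for transmembrane genes. On equal lists it was 1.3 for fibrillar, 1.11 for basement membrane, 0.910 for FACIT, 1.55 for transmembrane and 0.967 for the remaining genes. Hypoxia-only genes on equal lists were 0 fibrillar and 1 FACIT, and with strong peaks 1 basement membrane and 1 network. Counting type VI as network put 3 there and 0 in the remaining class. Shorter lists hold fewer peaks by construction; the cause of other shifts was not tested. Peaks of few reads limit these counts, and a gene unmarked in 1 library may carry the mark below its calling threshold.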
